A study of Mus musculus with 6 samples.

Results

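Macrophages and other myeloid cells of fat were followed through 36 genes, from the surface marker F4/80 (Adgre1) and the complement C1q chains to the transcription factors of the lineage. The genes were taken by symbol from the platform annotation, in which all 36 had at least 1 probe set and 58 probe sets in all, of 45037 that are not controls. Of these genes, 31 were called present on at least 3 of 6 arrays and were tested, among 10264 genes tested in all. The tissues were brown fat from the interscapular depot and white fat from the epididymal depot of male C57BL/6 mice (10 to 12 weeks old, untreated, ambient temperature), with 3 Affymetrix mouse 430_2 arrays per tissue from 3 mice. The labels do not say which brown and white samples came from the same mouse, and tissue type and body site cannot be told apart. Values below are quantile-normalised signals of replicates 1, 2 and 3 in that order, on a scale that does not compare 1 gene with another. Differences are brown minus white on the log2 scale, tested with limma and adjusted by Benjamini-Hochberg over all genes tested, and a gene was called at an adjusted p below 0.05. Folds are ratios of geometric means over 3 arrays.

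Adipose tissue macrophages live between the fat cells, where they clear dying cells and spilled lipid and take part in inflammation. Resident macrophages carry the scavenger and uptake receptors Mrc1 (CD206), Cd163, Folr2 and Timd4. Macrophages that have taken up much lipid, as in obesity, carry Trem2, Gpnmb and Cd9, and monocytes that enter from blood carry the chemokine receptor Ccr2. Many of these genes depend on the transcription factor PU.1 (Spi1), and survival of the cells depends on the receptor for CSF1 (Csf1r). In whole tissue, fewer cells of a type and less RNA per cell cannot be told apart, and none of these genes marks a cell count by itself.

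The arrays carried the markers of their labelled tissues. Ucp1, the uncoupling protein of brown fat, had signals of 12788 to 13251 on the brown arrays and was called absent on every white array, and leptin (Lep) read 1731 to 1762 in white against 32.1 to 67.2 in brown. Probe sets called present made up 35.6 to 37.5% of the brown arrays and 45.2 to 45.8% of the white ones. The actin 3'/5' ratio, a measure of RNA integrity, was 1.36 to 2.24 in brown and 1.19 to 1.73 in white, highest on brown replicate 2, and without that array 30 myeloid genes were higher in white. The part of these differences in the results was otherwise not tested. In a second deposited table of the series the columns run opposite in tissue, with Ucp1 at 22.4 to 93.9 in the columns of the brown samples, and that table was not used. The direction of Ucp1 and Lep was the reason for trusting the array files and is no separate evidence.

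Myeloid genes were higher in white adipose tissue almost throughout. Of 31 tested, 30 were higher in white, 0 were higher in brown and 1, the Fc receptor gene Fcgr1, was not called, with a median log2 difference of -2.22. Over all genes tested, 61% were called, 32.7% as higher in white and 28.2% as higher in brown, with a median of -0.043. Of the 31 myeloid genes, 14 were not called present on all brown arrays and 8 were absent on every one, and such genes passed the detection filter through white, so that count is not evidence by itself. The 17 genes called present on all 6 arrays did not depend on that filter in this way, and all 17 were higher in white. Their median difference was -2.43, and 13 of them differed at least 4-fold. Of all tested myeloid genes 19 were at least 4-fold higher in white (all genes tested 4.69%). Among all 7292 genes present on every array, 31.2% were higher in white, 2.5% were so by at least 4-fold, and the median was 0.031. Brown and white arrays were fully separated for 30 of the 31 tested myeloid genes, where 67.3% of all genes tested were separated in either direction and 36% toward white, and the same limit of the filter holds for that count. Of the 13 genes with several probe sets, only C1qb, Csf1r, Laptm5 and Ccr2 held further tested ones, 9 in all. Probe sets of 1 gene do not count as separate genes. All 9 had higher white values, where 54.5% of all tested probe sets were called and 29.9% called toward white. Of the 9, 4 were absent on every brown array and 4 were present on all arrays. Taking the deposited scaling in place of quantile normalisation, 5760 of all genes were called toward white and 1535 toward brown, with a median of -0.50, and the myeloid median was -2.69. With spike-in scaling the counts were 5227 and 1380, and the medians -0.48 and -2.68. With 64 signal units added to each value the myeloid median was -1.56, and Timd4 and Gpnmb were at -0.90 and -1.13. Replicates spread more in brown, with a median SD of 0.259 on the log2 scale against 0.0871 in white. For all genes these SDs were 0.154 and 0.128. All 31 myeloid genes were present on every white array, while 14 were not on every brown one. The part of low signal in the brown spread was not tested.

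**Figure D1:**
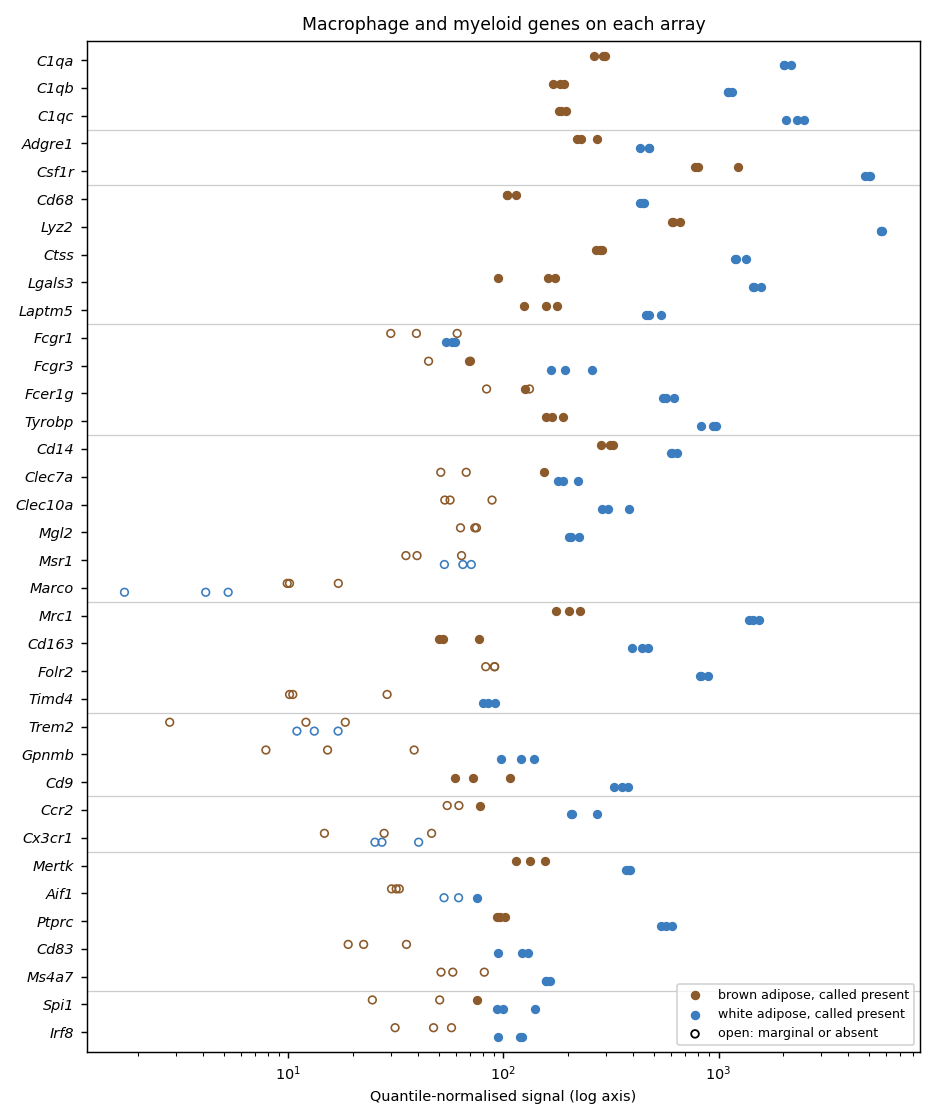
Quantile-normalised signal (horizontal, log axis) of the 36 myeloid genes on each of 6 arrays, grouped by role between the grey lines. Filled points were called present and open points marginal or absent; the white arrays lie to the right of the brown ones for every gene called, while Fcgr1, Msr1, Trem2 and Cx3cr1 overlap, Marco was absent throughout, and Aif1 was called present on 1 array only.

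The promoters of the myeloid genes were searched for the letters that myeloid factors are known to bind, whatever the call of the gene. The genes with GAGGAA, the first form below, include Fcgr1, which was not called, and Aif1, Marco and Trem2, which were not tested. A link of these letters to the difference between tissues was not tested. RefSeq promoters (build GRCm38.p6) were at hand for 27 of the 36 genes, 33 promoters in all, and the 250 bases before each start were searched on both strands. PU.1 binds sites around GAGGAA, and PU.1 with Irf8 binds joint sites in which GGAA and GAAA stand 2 bases apart. GAGGAA stood in 16 of 33 promoters of the myeloid genes (48.5%) and in 23.3% of all 32851 promoters of that length. Longer forms that contain it were rarer: GAGGAAG was found in 8 (24.2%, all promoters 10.6%), GAGGAAGT in 1 (3.03%, all promoters 2.44%) and AGAGGAAGT in 0 (all promoters 0.798%). The joint form stood in 4 of the 33 promoters, of 3 genes (12.1%, all promoters 2.3%). CACGTG, which MITF and related factors of lysosomal genes bind, was found in 0 of them and in 6.02% of all promoters. These are matches of letters, not measured binding, and several genes contribute more than 1 overlapping promoter. The sequences below are those with GAGGAAGT or the joint form, 5′ to 3′ on the gene's strand and ending just before the start, with the match in capitals (its reverse complement where it lies on the other strand). In C1qc the match spans bases 195 to 188 before the start, in Folr2 136 to 127, in Timd4 72 to 63 and in Clec7a 66 to 57. Folr2 and Timd4 are markers of resident macrophages, C1qc is a complement chain and Clec7a a receptor for fungal glucan.
C1qc, chr4:136892915-136893164, minus strand: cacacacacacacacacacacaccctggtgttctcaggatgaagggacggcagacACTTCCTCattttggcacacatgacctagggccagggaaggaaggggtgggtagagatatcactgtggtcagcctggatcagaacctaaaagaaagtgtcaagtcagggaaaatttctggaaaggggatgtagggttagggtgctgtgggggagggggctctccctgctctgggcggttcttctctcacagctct
Folr2, chr7:101857191-101857440, minus strand: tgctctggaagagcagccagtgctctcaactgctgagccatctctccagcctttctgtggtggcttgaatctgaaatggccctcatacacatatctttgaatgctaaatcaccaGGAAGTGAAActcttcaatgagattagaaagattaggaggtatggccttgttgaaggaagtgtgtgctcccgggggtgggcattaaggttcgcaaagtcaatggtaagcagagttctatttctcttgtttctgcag
Timd4, chr11:46810549-46810798, plus strand: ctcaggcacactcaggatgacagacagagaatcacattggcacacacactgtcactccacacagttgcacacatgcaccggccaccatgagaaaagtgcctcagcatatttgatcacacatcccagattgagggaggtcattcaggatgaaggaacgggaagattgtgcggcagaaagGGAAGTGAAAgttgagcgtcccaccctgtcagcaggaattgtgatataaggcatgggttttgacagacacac
Clec7a, chr6:129472780-129473029, minus strand: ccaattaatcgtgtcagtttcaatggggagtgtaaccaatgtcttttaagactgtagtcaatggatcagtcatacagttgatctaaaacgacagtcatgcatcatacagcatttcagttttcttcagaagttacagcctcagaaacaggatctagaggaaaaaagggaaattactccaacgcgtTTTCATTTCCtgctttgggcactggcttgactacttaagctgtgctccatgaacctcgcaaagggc

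Macrophages are the main source of complement C1q, whose A, B and C chains assemble into the molecule that starts the classical pathway and tags debris for uptake. All chains were higher in white, with every brown array below every white one. C1qa read 264, 296 and 291 in brown and 2163, 2023 and 2025 in white, a log2 difference of -2.87 (standard error 0.0776, adjusted p = 1.79e-09). C1qb read 171, 192 and 182 in brown and 1102, 1113 and 1153 in white, a log2 difference of -2.63 (standard error 0.0866, adjusted p = 5.56e-09). C1qc, whose promoter is shown above, read 196, 186 and 181 in brown and 2499.5, 2053 and 2329 in white, a log2 difference of -3.61 (standard error 0.0912, adjusted p = 1.12e-09). The folds were 7.31, 6.19 and 12.2, and C1qc had the largest difference of the 17 myeloid genes present on every array. The further C1qb probe sets gave -1.51 and -2.86, so the size of its difference depends on the probe set.

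The general macrophage genes differed between tissues by unequal amounts. Adgre1, which encodes F4/80, an adhesion receptor used as the standard mouse macrophage marker, read 221, 272 and 231 in brown and 474, 430.4 and 477 in white. Its arrays did not overlap, and it had a log2 difference of -0.94 (standard error 0.11, adjusted p = 4.53e-05), a 1.92-fold difference and the smallest among the myeloid genes present on every array. Csf1r, the receptor that macrophages need to survive, read 806, 1227 and 781 in brown and 5049.9, 4791 and 5021 in white, a log2 difference of -2.43 (standard error 0.146, adjusted p = 3.28e-07). Brown replicate 2 was the highest of the brown arrays for both genes. Csf1r was 5.4-fold higher in white, and its other probe sets gave -2.38 and -1.47. Ptprc (CD45), a phosphatase on all white blood cells and therefore not macrophage-specific, read 92.9, 96.2 and 102 in brown and 572, 539.6 and 607 in white, a log2 difference of -2.56 (standard error 0.108, adjusted p = 2.75e-08). Mertk, a receptor tyrosine kinase for the uptake of dead cells, read 156, 115 and 133 in brown and 386, 384 and 371 in white, a log2 difference of -1.51 (standard error 0.131, adjusted p = 4.78e-06).

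The 5 lysosomal and secreted proteins among the myeloid genes were higher in white. Lyz2, the lysozyme of macrophages and neutrophils, read 609.6, 615 and 665 in brown and 5715, 5787 and 5698 in white, a log2 difference of -3.19 (standard error 0.0577, adjusted p = 2.15e-10). It was 9.11-fold higher in white. Lgals3, a sugar-binding protein (galectin-3) that macrophages release in large amounts, read 173, 94.4 and 161 in brown and 1454, 1456 and 1577 in white, a log2 difference of -3.44 (standard error 0.197, adjusted p = 2.36e-07). Its signal was lowest on brown replicate 2, where Adgre1 and Csf1r were highest. Ctss, a protease that cuts the invariant chain of antigen presentation, read 287, 271 and 282 in brown and 1187, 1347 and 1209 in white, a log2 difference of -2.15 (standard error 0.0831, adjusted p = 1.56e-08). Cd68, a glycoprotein of late endosomes and lysosomes, read 115, 104 and 104 in brown and 445, 431 and 453 in white, a 4.12-fold difference (log2 -2.04, adjusted p = 1.38e-07). Laptm5, a lysosomal membrane protein of blood cells, read 177, 157 and 124 in brown and 459, 477 and 540.1 in white and had a log2 difference of -1.70 (standard error 0.143, adjusted p = 3.84e-06), and its tested probe sets spanned -2.87 to -0.82.

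Activating Fc receptors signal through Fcer1g and Trem2 through Tyrobp (DAP12), small adaptors with an immunoreceptor tyrosine-based activation motif (ITAM). Both adaptors were higher in white. Tyrobp read 190.2, 168 and 157 in brown and 826, 969 and 946 in white, a log2 difference of -2.41 (standard error 0.108, adjusted p = 4.39e-08). Fcer1g read 83.5, 132 and 126 in brown and 573, 554 and 618 in white, a log2 difference of -2.38 (standard error 0.17, adjusted p = 1.19e-06), and was called present on 1 of the brown arrays. Of the receptors, Fcgr3 (CD16) read 69.5, 70.3 and 44.9 in brown and 167, 259 and 193 in white, a log2 difference of -1.75 (standard error 0.228, adjusted p = 9.44e-05). Fcgr1 (CD64), the receptor with high affinity for antibody, read 39.4, 29.9 and 60.9 in brown and 53.9, 57.7 and 59.7 in white, and the tissues overlapped. It had a log2 difference of -0.46 (standard error 0.286, adjusted p = 0.194) and was not called, while with the deposited scaling (0.0169), spike-in scaling (0.0146) or without brown replicate 3 (0.0365) its limma adjusted p passed the threshold, in a range of 0.0146 to 0.529 over all alternatives. Fcgr3 resembles other Fc receptors in sequence, and reading of related transcripts by its probes was not tested.

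Receptors for microbial and sugar ligands were higher in white where they were detected. Cd14, which hands lipopolysaccharide to Toll-like receptor 4, read 322, 312 and 284 in brown and 639, 603 and 610.1 in white, a log2 difference of -1.01 (standard error 0.0894, adjusted p = 5.45e-06). That 2.02-fold difference was close to the one of Adgre1. Clec10a and Mgl2, closely related lectins for galactose-type sugars, were called absent on every brown array. Clec10a read 88.5, 56.5 and 53.4 in brown and 305, 382 and 287 in white, at least 5-fold higher in white (adjusted p = 6.35e-06). Mgl2 read 63.2, 73.6 and 74.9 in brown and 205, 202 and 226 in white, at least 2.99-fold higher (adjusted p = 6.83e-06), and whether the probes of each also read the other was not tested. Here and below, "at least" compares the white mean log2 signal with a floor in brown, the lowest present-called signal of each array or the gene's own signal where that was higher. Where the gene's own signal was higher on all brown arrays, the bound equals the measured fold. It concerns background in brown and leaves out the spread of the replicates. Clec7a (dectin-1), whose promoter is among those shown, read 51.1, 155 and 67.1 in brown and 221, 179 and 189.6 in white, a log2 difference of -1.27 (standard error 0.341, adjusted p = 0.0088). Brown replicate 2 lay nearer the white arrays than the other brown ones did. Msr1 and Marco, scavenger receptors for modified lipoproteins and microbes, read 39.6, 35.2 and 63.9 in brown and 70.9, 64.8 and 53.1 in white and 10.1, 17.1 and 9.88 in brown and 4.13, 5.25 and 1.73 in white, respectively. Both were called absent on all arrays with every probe set and were not tested.

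All 4 resident markers were higher in white, and their median log2 difference was -2.87. Mrc1, the mannose receptor, read 227, 201 and 175 in brown and 1386, 1454 and 1544 in white, a log2 difference of -2.87 (standard error 0.107, adjusted p = 1.21e-08). Cd163, the receptor for haemoglobin bound to haptoglobin, read 76.8, 50.4 and 52.6 in brown and 439, 394 and 468 in white, a log2 difference of -2.88 (standard error 0.177, adjusted p = 3.99e-07). These were present on every array and 7.29-fold and 7.35-fold higher in white. Folr2, a folate receptor, read 90.9, 82.7 and 91.1 in brown and 817, 829 and 898 in white, was called absent on every brown array and was at least 9.61-fold higher in white (adjusted p = 4.19e-09). Timd4, a receptor for phosphatidylserine on dead cells, read 28.8, 10.5 and 10.1 in brown and 84.6, 80.1 and 91.8 in white, was likewise absent in brown, and was at least 5.88-fold higher (adjusted p = 0.000394). Brown replicate 1 was the highest brown array for Mrc1, Cd163 and Timd4.

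Not all of the lipid-associated markers could be measured. Trem2, the lipid-sensing receptor that defines these cells in obese fat, read 18.4, 2.81 and 12.1 in brown and 13.2, 11 and 17 in white and was called absent on all 6 arrays with both of its probe sets, so no difference could be measured. Gpnmb, a glycoprotein of lysosome-rich macrophages, read 38.5, 15.2 and 7.86 in brown and 97.2, 121 and 139 in white, was called present on the white arrays only, and was at least 6.77-fold higher in white (adjusted p = 0.000688). Its second probe set was absent on all arrays. Cd9, a tetraspanin that many other cell types also carry, read 59.4, 107 and 71.9 in brown and 328, 356 and 379 in white, a log2 difference of -2.20 (standard error 0.202, adjusted p = 7.26e-06). Thus 2 of 3 were called higher in white, and the third was not measurable.

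Ccr2, which brings monocytes out of bone marrow and into tissue, read 77.4, 54.8 and 62.1 in brown and 209, 273 and 206 in white. The white arrays lay above all brown ones, with a log2 difference of -1.83 (standard error 0.183, adjusted p = 1.37e-05), and 1 of 3 brown arrays was called present. Its other tested probe sets were also higher in white, at -3.01 and -0.75, and the remaining one was absent throughout, so the size of the Ccr2 difference is uncertain. Cx3cr1, the fractalkine receptor of patrolling monocytes and some tissue macrophages, read 27.9, 46.3 and 14.7 in brown and 25.3, 40.3 and 27.2 in white, was absent on all arrays with both probe sets and was not tested.

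**Figure D2:**
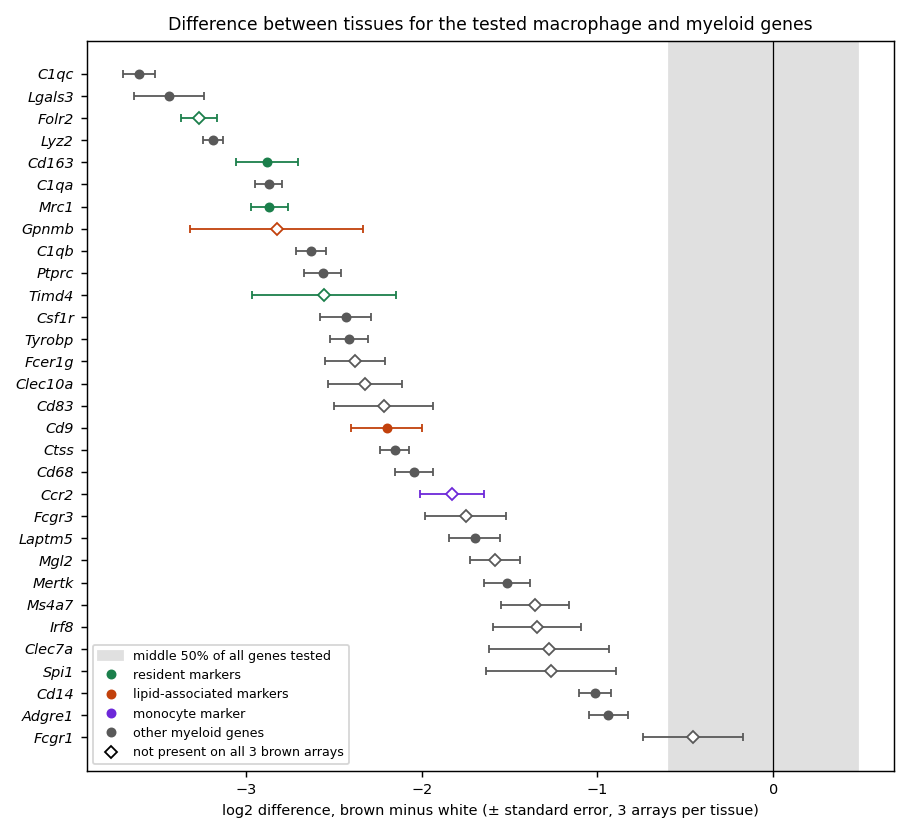
Log2 difference (brown minus white, horizontal) with its standard error for the 31 tested myeloid genes, coloured by class, with the middle 50% of all genes tested in grey. All points lie left of 0, from -3.61 for C1qc to -0.46 for Fcgr1, and the diamonds mark genes not called present on all brown arrays, which include Folr2, Timd4, Gpnmb and Ccr2.

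Whether the classes differed beyond the general macrophage signal was asked by setting each class marker against Adgre1 on the same array. All 7 tested markers had lower log2 ratios in brown than in white on every array. The change of the ratio (brown minus white) was -1.93 for Mrc1, -1.94 for Cd163, -2.33 for Folr2 and -1.62 for Timd4. For Gpnmb it was -1.89, for Cd9 -1.26 and for Ccr2 -0.89. Brown and white arrays did not overlap in any of these ratios (exact permutation p = 0.1 for each, two-sided, the smallest possible with 3 arrays against 3, and 0.1 after adjustment over the 7 markers). The comparison therefore could not reach the threshold of 0.05. Its direction was also nearly set by the reference, since Adgre1 had the smallest difference of the myeloid genes present on every array. Genes outside the classes fell against Adgre1 too, with C1qc at -2.67, Lgals3 at -2.50 and Lyz2 at -2.25. Among the tested myeloid genes only Fcgr1 went the other way (0.48). Lower ratios to Adgre1 were thus not particular to the class markers. Brown values of Folr2, Timd4 and Gpnmb were below detection, so their ratios rest on background in brown, and only Mrc1, Cd163 and Cd9 were present on every array. The Gpnmb value was -2.57 without brown replicate 1 and -1.39 without brown replicate 3. With 64 signal units added, the changes were -1.74 for Mrc1, -1.23 for Cd163, -1.80 for Folr2, -0.12 for Timd4, -0.34 for Gpnmb, -0.77 for Cd9 and -0.40 for Ccr2.

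Another reference shifts all ratio changes by 1 common amount, which can alter their size and sign but not their order. With Csf1r as the reference the ratio changes were -0.43 for Mrc1 (unadjusted exact permutation p = 0.2), -0.45 for Cd163 (0.4), -0.83 for Folr2 (0.1), -0.12 for Timd4 (0.8) and -0.39 for Gpnmb (0.6). Cd9 turned to 0.23 (exact permutation p = 0.3) and Ccr2 to 0.61 (0.2). Against the mean of Adgre1, Csf1r and Cd68, the changes for Mrc1, Cd163 and Folr2 were -1.06, -1.07 and -1.46. Those for Timd4, Gpnmb, Cd9 and Ccr2 were -0.75, -1.02, -0.39 and -0.022. The direction of the Cd9 or Ccr2 difference relative to general macrophage genes thus depended on the reference chosen, and turned against Csf1r only.

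**Figure D3:**
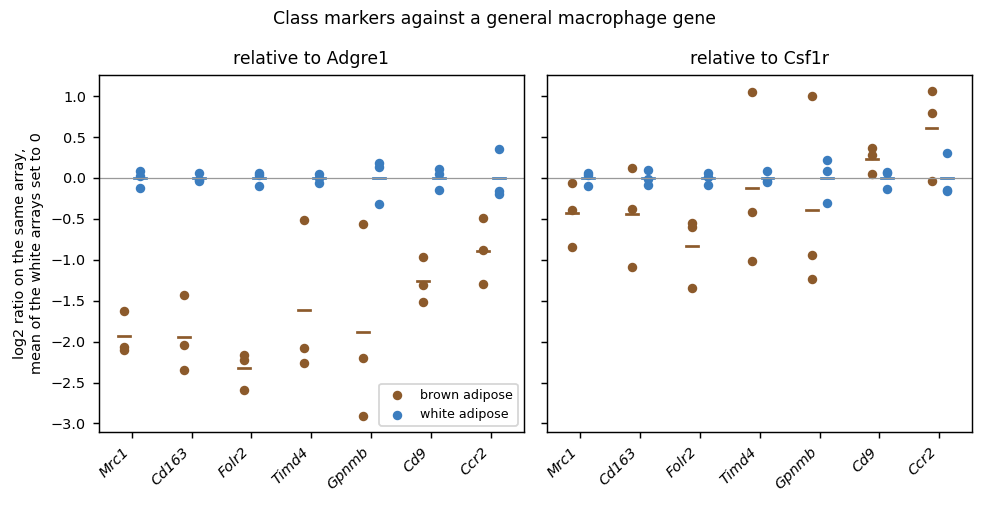
Log2 ratio of each class marker to Adgre1 (left) or Csf1r (right) on the same array, with the mean of the white arrays set to 0; points are single arrays and bars are means of 3. All brown points lie below the white ones on the left, while on the right Cd9 and Ccr2 have brown means above 0, at 0.23 and 0.61.

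Both transcription factors of the lineage were higher in white, and neither was called present on all brown arrays. Spi1 (PU.1), the factor that sets myeloid fate, read 75.3, 50.5 and 24.6 in brown and 140.0, 100 and 92.9 in white, a log2 difference of -1.27 (standard error 0.369, adjusted p = 0.0136). Its brown arrays spread widely, and without white replicate 1 the call was lost (limma adjusted p = 0.058, range over the alternatives 0.00018 to 0.058). Irf8, a partner of PU.1 in monocytes and dendritic cells, read 57.3, 47.3 and 31.4 in brown and 94.7, 123 and 119.8 in white, was absent on every brown array and was at least 2.54-fold higher in white (adjusted p = 0.00106). The remaining surface genes went the same way. Cd83, found on activated antigen-presenting cells, read 22.4, 19 and 35.4 in brown and 94.2, 123 and 131 in white and was at least 4.65-fold higher in white (adjusted p = 7.5e-05). Ms4a7, a membrane protein of macrophages, read 51.3, 81.5 and 58.1 in brown and 164, 157 and 158 in white, at least 2.56-fold higher in white (adjusted p = 0.000174). Aif1, the calcium-binding protein Iba1, read 30.2, 31.7 and 32.8 in brown and 53, 75.1 and 61.9 in white, was called present on 1 white array only and was not tested. With no detection filter Aif1 was called higher in white (log2 -0.99, limma adjusted p = 0.0193 over 18193 genes), while Msr1, Marco, Trem2 and Cx3cr1 had adjusted p from 0.0654 to 0.811.

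Genes that work beside these were examined in related lists of 140 genes, of which 128 had a named probe set and 100 were tested. Of the tested genes 72 were higher in white, 11 in brown and 17 were not called, with a median of -1.02. Over all genes 32.7% were higher in white. The lists were chosen with earlier results of these data known, so their counts are not separate evidence. Of the tested genes 16 were absent on every brown array and passed the filter through white. Among the 67 genes tested when presence on all 6 arrays was required, 51 were called toward white and 10 toward brown, and with median centring the counts over all 100 were 65 and 16. Among further resident macrophage genes, 14 of 16 were higher in white, with Maf, a factor of tissue macrophages, at -3.39, Cbr2, a carbonyl reductase of resident cells, at -3.28 and Gas6, a ligand of Mertk and Axl, at -3.20. Slc40a1 (ferroportin), the iron exporter, was higher in brown at 1.64, and Hmox1, which degrades heme, was not called (-0.44, adjusted p = 0.246). In the further lipid-associated list 11 of 15 were higher in white, led by Mmp12, the macrophage elastase, which was at least 12-fold higher. The droplet protein Plin2 (1.02) and the lysosomal lipase Lipa (0.93) were higher in brown, and Ctsd and Pld3 were not called. Fat cells themselves express Plin2, Lpl, Cd36 and Apoe, so that list does not belong to macrophages alone.

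Among further monocyte genes 8 of 9 were higher in white, including Itgam (CD11b), at least 3.78-fold, and Vcan, a matrix proteoglycan, at -2.18. Not all genes of this list are particular to monocytes, and 32.7% of all genes tested were higher in white. Nr4a1, a nuclear receptor of patrolling monocytes that fat cells also induce, was higher in brown at 4.20. Chil3, Itga4 and Treml4 were absent on all arrays (here and below by the brightest probe set of the gene). All 6 tested genes of a list around the CSF1 receptor were higher in white, among them both ligands of Csf1r. The list is wider than that receptor: it also holds Csf2ra and Csf2rb, chains of the receptor for another growth factor, GM-CSF, and the general signalling proteins Cbl and Grb2. Its largest difference was that of Csf2ra (-2.61). Csf1 read 139.7, 187 and 132 in brown and 424, 388 and 434 in white (-1.46, adjusted p = 1.22e-05), and Il34 was at least 2.22-fold higher in white. The phagocyte oxidase, which makes superoxide, had 4 of 4 tested subunits or partners higher in white. Its membrane subunits Cyba and Cybb differed by -3.27 and -2.87. Of leukocyte integrins 3 of 4 were higher in white, with Itgb2 (CD18) at -2.55 and Itgax (CD11c) at least 2.37-fold, and Itgae (CD103) was higher in brown (1.10).

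Among signalling genes and receptors around the ITAM adaptors, 4 of 11 were called, all higher in white, a share of 36.4% against 61% of all genes tested. The kinase Syk, which binds phosphorylated ITAMs, exceeded brown at least 7.5-fold in white, and Sirpa, an inhibitory receptor for CD47, differed by -1.91. The phosphatases Inpp5d (-0.098) and Ptpn6 (0.30) were not called, and Plcg2, Btk, Trem1, Clec4e and Siglec1 were absent on all arrays. The lysosomal list had 13 of 18 genes higher in white, with the proteases Ctsc at -3.20, Ctsh at -2.25 and Lgmn at -1.86. Ctsf (0.90) and Ctsz (0.67) were higher in brown, and Ctsd was not called (0.014). In the efferocytosis list 8 of 10 were higher in white, including Axl (-1.72) and Pros1 (-1.51), a receptor and a bridging protein of the Mertk family. Of the chemokine genes 5 of 7 were higher in white, led by the ligands Ccl6 (-3.89) and Ccl9 (-3.24). Myeloid transcription factors outside the core pair went both ways, with 5 higher in white and 4 in brown of 10. Irf4 was at least 7.95-fold and Cebpb 4.05-fold higher in brown, and brown fat cells are known to express both.

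**Figure D4:**
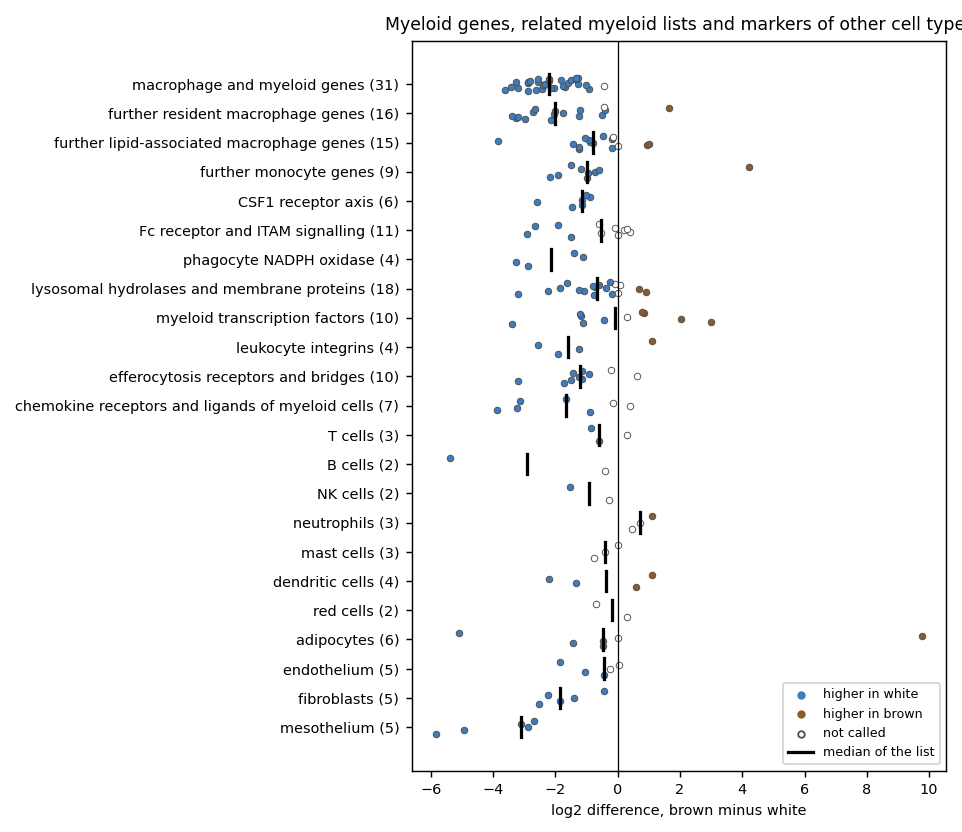
Log2 difference (brown minus white) of each tested gene in the myeloid set, the related lists and marker lists of other cell types, with the number tested in brackets and the median as a black bar. Blue points were higher in white, brown points higher in brown and open points not called; the oxidase and resident lists lie near the myeloid median of -2.22, while neutrophil markers lie right of 0.

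Markers of other cell types moved as well, and their part in these results was not tested. Of mesothelial markers 5 of 5 were higher in white, with summed signals of 146 to 200.2 on the brown arrays and 1864 to 2242 on the white arrays. Fibroblast markers were so in 5 of 5, summing to 7063 to 7733 on the brown arrays and 24439 to 25016 on the white arrays, and endothelial markers in 3 of 5, summing to 1621 to 1843 on the brown arrays and 2340.1 to 2451 on the white arrays. The 36 myeloid genes summed to 4857 to 5475 on the brown arrays and 28244 to 28975 on the white arrays. A sum adds probe sets on different scales, so it can be set against the other tissue only and not against another list. Bright probe sets weigh most, such as Lyz2 and Csf1r among the myeloid genes and Dcn among fibroblast markers, which read 10549 on each white array. B cell markers were called in 1 of 2 tested, Ighm, which exceeded brown at least 42-fold, while Ms4a1 was not called (-0.41, adjusted p = 0.0922) and Cd79b, Pax5, Blk and Cr2 were absent on all arrays, and the sums were 332 to 526 on the brown arrays and 4821 to 5775 on the white arrays. Ighm alone read 110.2, 146 and 96.8 in brown and 5493, 4527 and 4654 in white. T cell markers were higher in white in 2 of 3 tested, with Cd3d, Cd3e, Cd3g, Cd5 and Cd4 absent on all arrays and sums of 322 to 454 on the brown arrays and 535 to 549 on the white arrays. Natural killer cell markers were higher in 1 of 2 and summed to 198 to 243 on the brown arrays and 269 to 319 on the white arrays. With 61% of all genes called, the shares called of 60% in the endothelial, 66.7% in the T cell and 50% in the natural killer cell list are near the background.

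Markers of other myeloid and blood cells showed no common direction. Neutrophils, which also express Lyz2, Tyrobp and Fcer1g, had 1 of 3 tested markers higher in brown (Ngp, 1.10) and none higher in white. S100a8 and S100a9 were not called, Cxcr2, Camp, Mpo and Elane were absent on all arrays, and the sums were 393 to 487 on the brown arrays and 312 to 385 on the white arrays. Mast cell markers, 3 tested, were not called by limma, with Mcpt4, Fcer1a, Ms4a2 and Hdc absent and sums of 372 to 445 on the brown arrays and 503 to 612 on the white arrays. Eosinophil markers were not tested, with Prg2, Il5ra and Ccr3 absent and sums of 76.8 to 97.1 on the brown arrays and 61.2 to 114 on the white arrays. Dendritic cell markers were split, 2 higher in white (Cd24a and Cd209a) and 2 in brown (Itgae and Zbtb46), with Flt3, Xcr1, Siglech and Ccr7 absent and sums of 445 to 582 on the brown arrays and 701 to 982 on the white arrays. The Zbtb46 call was near the threshold (0.58, limma adjusted p = 0.0485). With presence on all arrays required, another Zbtb46 probe set gave -0.32. Red cell markers, 2 tested, were not called and summed to 331 to 415 on the brown arrays and 248 to 332 on the white arrays. The adipocyte list had 4 of 6 markers higher in white and 1, Ucp1, higher in brown, and summed to 36078 to 37438 on the brown arrays and 34716 to 35684 on the white arrays. Ucp1 alone read 13251, 12788 and 12788 in brown and 62.5, 4.58 and 11.2 in white, so the nearness of these sums rests on it. The markers higher in white were Lep, Cidec, Lipe and Adipoq. Lipe (-0.48), Pnpla2 (-0.0038) and Adipoq (-0.47) changed sign with median centring.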

How the data were processed

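Total RNA was labelled with biotin and hybridised to 6 arrays. Per the file headers, the authors deposited for each array a linear signal intensity, a present, marginal or absent call and its detection p-value per probe set; the sources used here give no software version or scaling, and no genome build. The series table deposited beside them, also a linear signal intensity, runs opposite in tissue: its columns correlated at 0.816 to 0.875 with array files of the other tissue and at 0.78 to 0.796 with those of the same tissue. It was not used for any result. Its column medians were 64.3, 62.9 and 63.8 for brown and 56.7, 56.8 and 55.9 for white, and its scaling and centring stay unknown.

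Of 45101 probe sets, 64 controls were left out, 34945 of the rest had 1 symbol, 932 several and 9160 none. Log2 signals (1 zero set to 0.1) were quantile-normalised. Probe sets present on at least 3 arrays were fitted with limma 3.58.1 in R 4.3.3 (lmFit, eBayes with trend), using the brightest probe set per gene. The fit was first tested on simulated data. Precision is limited by 3 arrays per tissue, biological replicates per the design text.

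The genes and lists were chosen with earlier results of these data known, and 21 listed genes had no probe set named here. All 36 members are named; of each list, the 3 called genes with the largest difference in the main direction, up to 2 in the other and up to 2 uncalled with the highest signal could be named, and genes absent on all arrays are named by their calls. Deviations of same-numbered arrays from their tissue means correlated at -0.0395 to -0.00809 and those of differently numbered arrays at -0.0111 to 0.0363, so whether equal numbers mark a shared mouse cannot be told from the arrays, and the fit has no block. Alternatives changed scaling, filter, offset, probe set choice, prior, block and single arrays. Promoter sequences are RefSeq's.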

Additional observations from a re-analysis of the deposited data

How the results depend on the processing

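Of 512 values of single myeloid genes under 17 alternatives, 508 kept their direction and side of the threshold, 1 lost its call (Spi1 without white replicate 1), 3 gained one (Fcgr1) and 0 reversed. The count higher in white was 29 to 31 without single arrays, with medians of -2.34 to -2.15, 31 with the deposited or spike-in scaling (medians -2.69 and -2.68, all genes -0.50 and -0.48) and 30 with the replicate number as a block, which changed no myeloid call. With 64 signal units added the median shrank to -1.56, and Timd4 and Gpnmb to -0.90 and -1.13, since an offset compresses dim genes. Requiring presence on all 6 arrays left 17 of 17 myeloid genes tested as higher in white, 2 resident, 1 lipid-associated and 0 monocyte markers, as fewer genes were tested. With the deposited scaling 5760 of all genes were called toward white and 1535 toward brown, and 5227 and 1380 with spike-in scaling, against 3361 and 2895. Their median turned to 0.063 without a filter and 0.024 with presence on all arrays. The ratios of Cd9 and Ccr2 to Adgre1 turned to 0.23 and 0.61 against Csf1r. Outside the set, 8 of 1405 values turned. With the deposited scaling these were Kit (-0.50) and Kdr (-0.33), and with median centring Lipe (0.054), Pnpla2 (0.55) and Adipoq (0.033). With presence on all arrays they were Gaa (-0.38) and Zbtb46 (-0.32). Both were then read by another probe set, since their main one was not present on every array. With the probe sets of a gene averaged it was Pnpla2 (0.49). Why the other values turned was not tested. Leave-one-out fits kept the tested genes of all arrays. Genes absent in brown have only a bound there.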
